A study of Gallus gallus with 403 samples.

Results

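The genes of MHC antigen presentation were described across chicken organs and ages from the deposited array values. The set named 9 genes, 5 of class I (BF1, BF2, B2M, TAP1 and TAP2) and 4 of class II (BLB1, BLB2, CD74 and CIITA). Probe sets were taken by the gene symbol of the array's annotation, and each gene was represented by the probe set with the highest mean over all arrays. By this rule 7 of the 9 genes were measured, out of 13009 genes with a probe set of their own. BF1 and BLB2 had none: 3 probe sets carried both BF1 and BF2 as symbols, and 1 carried both BLB2 and BLB1.

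Class I molecules display peptides from inside almost any cell. The BF genes encode their heavy chain, B2M encodes the light chain beta-2 microglobulin, and TAP1 with TAP2 forms the pump that carries peptides into the endoplasmic reticulum for loading. Class II molecules display peptides taken up by antigen-presenting cells such as B cells, macrophages and dendritic cells. The BLB genes encode their beta chain, CD74 is the invariant chain that guides them to the endosome, and CIITA is the transcriptional coactivator that switches class II genes on. In the chicken the classical genes of both classes lie close together in the compact B locus, and BF2 is known as the more strongly expressed of its class I pair. The RefSeq table of assembly GRCg7b lists the genes there in the order BLB1, TAPBP, BLB2, BRD2, DMA, DMB1, DMB2, BF1, TAP1, TAP2 and BF2.

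The study profiled total RNA from tissues of Gallus gallus on Affymetrix Chicken Genome arrays, without any labelled treatment. The arrays fell into 101 groups of 1 tissue and 1 age from 20 tissues, with 4 arrays in 94 groups, 3 in 5 groups and 6 in 2 groups. Ages ran from day 0 to day 56, with gonads at weeks 16 to 21 or year 2, with the event that starts the count left unnamed in the labels. The labels give neither a breed nor whether replicate arrays came from separate birds, so p-values measure only the spread between these arrays, which may be technical. Each group used in a comparison of ages held arrays labelled as 2 females and 2 males.

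Some arrays stood apart from their labels. In 10 groups at least 1 marker of the labelled organ lay at least 3 log2 units under the tissue's median. These were liver at day 56 (albumin gene ALB at 8.03 against a tissue median of 14.81), pectoralis muscle in a day 21 group and in the group labelled both day 28 and day 21, 4 brain groups (day 1, a second day 7 set, day 14 and day 21), and abdominal fat at days 1, 7 and 10 (adiponectin gene ADIPOQ at 6.05 to 6.34 against 10.88). In the 4 brain groups only GRIN1 was that low (7.28 to 7.62 against 11.28), while NEFM was not (9.57 to 10.25 against 11.02). In fat at day 10 only ADIPOQ was that low, with PLIN1 at 7.32 against 10.02. The 4 groups from gastrocnemius at days 21 and 28 and from the second pectoralis sets of those ages matched each other array for array, at correlations of 0.966 to 0.980. Array number 1 also matched across groups in brain at days 0, 7, 8 and 9, in duodenum at days 0 and 7 and in pectoralis at days 0 and 7, more closely than it matched its own group. Other single arrays were also closer to another age than to their own group, among them array number 1 of liver at days 0 and 49 and of gastrocnemius at day 7. All 7 members were still called in liver at day 7 against day 0 without array 1 of day 0. The arrays carry 2 runs of sample numbers, 251 arrays in the first and 152 in the second, and ages were compared only within 1 run. At day 7 spleen, fat, retina, growth plate and jejunum came from the second run and the other tissues from the first. Organ and run therefore cannot be told apart for these tissues at that age. Free descriptions in the second run also conflicted with the titles over tissue or age. Its groups were formed by title, so their tissue and age are less certain.

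All values below are log2 signal, and since each probe set has its own brightness, levels were compared between tissues for 1 gene and never between genes. Averaged over all arrays, B2M (11.83), CD74 (11.66) and BLB1 (10.99) were among the brightest probe sets, above 98% or more of all genes. BF2 averaged 8.91, TAP2 8.14, TAP1 7.15 and CIITA 6.59, the last brighter than 40.0% of genes. The BF2 and BLB1 probe sets are of a type that can also bind close relatives, so their signal may include BF1 or BLB2, and alleles of these polymorphic genes may bind unequally. Of the 3 probe sets shared by BF1 and BF2, both bright ones followed BF2 closely over all arrays (r = 0.926 and 0.943), and 4 other BLB1 probe sets followed the one used at 0.461 to 0.962. The third shared probe set, which was dim, did not follow BF2 (-0.047). The other probe sets of BF2 alone were also dim and followed the one used at 0.116 to 0.666, and those of B2M at 0.617 and 0.632. Among the genes with several probe sets CIITA was the least secure, since all its other probe sets were dim and followed the one used at only 0.115 to 0.418. In whole tissue, fewer cells of a type and less RNA per cell cannot be told apart.

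Day 7 was the age with the most organs, and at that age the class I heavy chain gene BF2 was high in gut, liver and spleen and low in nervous tissue and cartilage. Its group means were 11.91 in jejunum, 11.72 in whole intestine, 11.55 in liver and 11.36 in spleen, then 10.55 in duodenum and 10.15 in lung. The single arrays read 11.14, 11.42, 11.55 and 12.10 in liver, against 4.56, 5.59, 5.64 and 6.26 in retina, the tissue with the lowest mean. Neighbours in this order overlapped among the upper 6 tissues. Gastrocnemius (leg) muscle came next at 9.11 and lay wholly above pectoralis (breast) muscle at 7.36. Pineal gland, brain and fat followed between 6.89 and 6.76.

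The probe set of the light chain gene B2M was bright in most tissues. Its means lay between 14.34 in jejunum and 11.18 in pectoralis for 10 of the 13 tissues, with growth plate at 10.59 and brain at 9.69. Retina stood apart at 7.55, 8.19, 8.33 and 8.44, below the lowest array of the other 12 tissue groups shown, 9.53 in brain. The second brain set of day 7, whose brain marker GRIN1 was low, is not in this order, and its B2M arrays read 6.5 to 8.36. Cerebral cortex of day 7 is also left out of the orders of tissues and of the organ classes below. Its B2M arrays read 11.19 to 11.73. TAP2, the partner of TAP1 in the pump, split the tissues: the liver arrays of 9.25 to 10.01 lay wholly above the duodenum arrays of 7.91 to 8.22, the next in order. For TAP1 the means ran between 9.43 in spleen and 5.44 in retina, and no tissue was clear of its neighbour in the order.

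**Figure D1:**
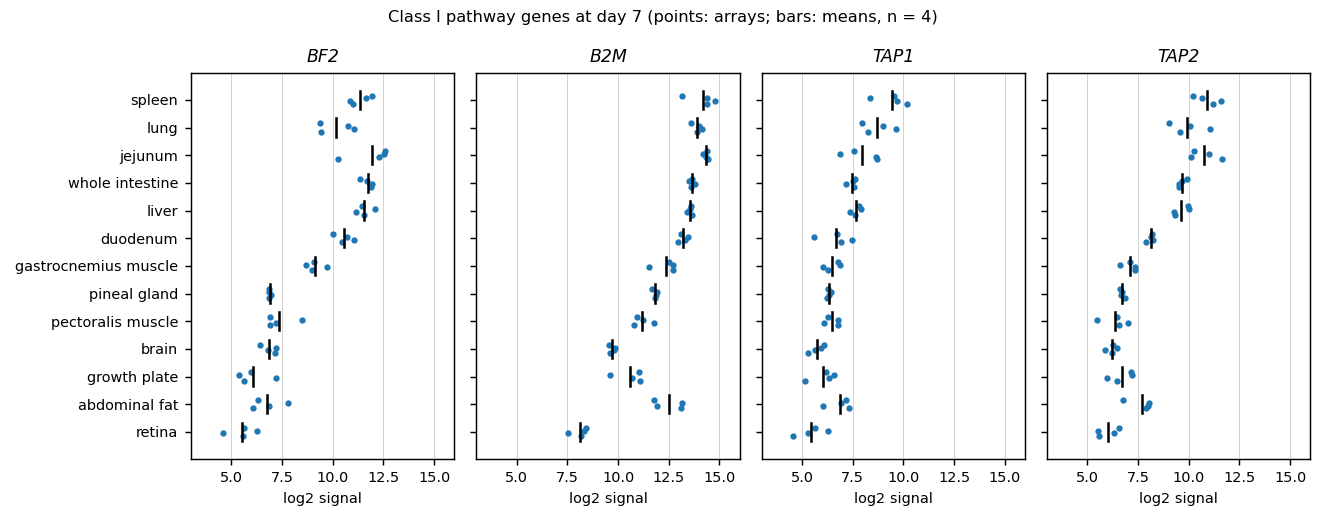
Log2 signal of the class I genes BF2, B2M, TAP1 and TAP2 in 13 tissues at day 7; points are arrays, bars are means (n = 4). Retina has the lowest mean for all 4 genes, and its B2M arrays (7.55 to 8.44) lie under those of every other tissue shown.

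All 3 class II genes had their highest mean in spleen. The beta chain gene BLB1 averaged 13.99 in spleen, 13.74 in lung, 13.64 in whole intestine, 13.27 in jejunum and 12.90 in liver. The pineal gland came next with 12.34, 12.50, 12.64 and 12.75. In the order of tissues for BF2 it was number 9, at 6.85 to 6.97. Below duodenum (12.34) 2 gaps set off gastrocnemius at 11.36, and the remaining 5 tissues lay between 9.12 in growth plate and 6.56 in retina.

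For the invariant chain gene CD74 the means of spleen, jejunum and lung lay between 14.14 and 13.92. The next 5 tissues averaged between 13.07 in liver and 12.13 in duodenum, and the highest gastrocnemius array (13.58) lay above the lowest spleen array (13.45). Pectoralis (10.21) and brain (9.88) lay wholly below duodenum. Fat, growth plate and retina averaged between 8.64 and 8.30, with growth plate arrays spread over 6.84 to 10.00, into the range of brain. The muscles differed, since gastrocnemius read 12.28, 12.52, 12.98 and 13.58, against 9.98 to 10.50 in pectoralis.

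For CIITA, the coactivator, only spleen and lung stood out. Its arrays read 9.74, 9.93, 10.42 and 10.51 in spleen, against 7.78, 7.82, 8.76 and 9.06 in lung, which came next. Spleen did not overlap lung, and lung did not overlap liver, the next in order. Liver, duodenum, whole intestine and jejunum averaged only 7.05 to 6.80. In fat CIITA averaged 4.69 with an SD of 1.19, close to the dim end of the array's range.

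**Figure D2:**
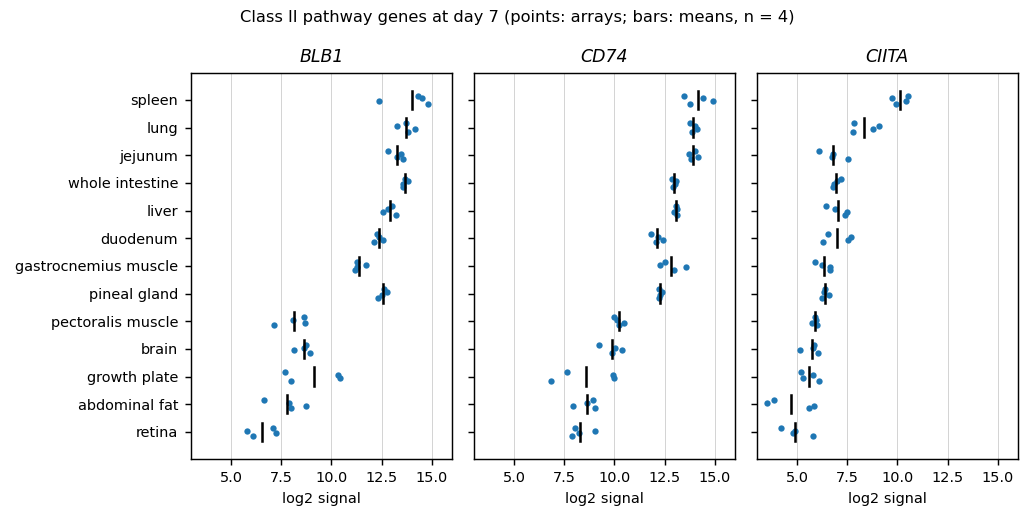
Log2 signal of the class II genes BLB1, CD74 and CIITA in the same 13 tissues at day 7; points are arrays, bars are means (n = 4). Spleen leads for all 3 genes, pineal gland is high for BLB1 and CD74, and only spleen and lung stand clear of the rest for CIITA.

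Each of 10 organ classes was then set against the mean of the other 9 with limma over 12984 genes and 52 arrays, and a gene was called when its Benjamini-Hochberg adjusted p was under 0.05 and its difference reached 1 on the log2 scale, up or down. The fit used 1 spread per gene for all groups, although the groups differed in evenness. Their median SD over probe sets was 0.09 in pineal gland, 0.10 in whole intestine and 0.52 in jejunum and growth plate. Spleen BLB1 had an SD of 1.11, so the SEs and p-values can be too small for uneven groups. In spleen all 7 measured genes were called higher, against 11% of all genes tested. The class II differences were 3.54 ± 0.31 for BLB1 (SE), or 11.6-fold, 3.11 for CD74 and 3.95 ± 0.27 for CIITA, or 15.5-fold at an adjusted p of 1.01e-19. The class I differences were 3.20 for BF2, 3.23 for TAP2, 2.70 for TAP1 and 2.43 for B2M. The spleen CIITA arrays (9.74 to 10.51) lay above every array of the other classes, the highest of which reached 9.06, and no other member did so in spleen. The share of all genes without overlap was not counted, here and in the orders of tissues above. Leukocyte genes moved with them: 12 of 12 tested pan-leukocyte markers and 13 of 15 T cell and cytotoxic markers were higher in spleen, and their part in the result was not tested. Lists of 11 measured B and plasma cell markers and 16 measured macrophage and dendritic markers are not described in any comparison. Of 24 other antigen presentation genes 12 were higher, led by IFI30 (4.49), the thiol reductase of endosomes, CTSS (3.76), the protease that trims CD74, and DMA (3.61), a chain of the class II peptide editor.

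Lung also had all 7 genes called higher, against 11.9% of all genes tested. BLB1 differed by 3.25 and CD74 by 2.88, while CIITA (1.96), BF2 (1.86), TAP1 (1.89), TAP2 (2.15) and B2M (2.15) lay closer to 2. The interferon response list moved furthest there, with 23 of 26 genes higher and a median difference of 2.11 against 0.07 over all genes. Of the pan-leukocyte markers 5 of 12 were higher, with summary levels per array of 8.04 to 8.87 in lung, against 10.58 to 10.87 in spleen. The part of either list in the result was not tested. The 4 lung arrays were far from alike: array by array, the mean of the interferon list at day 7 was 7.90, 10.39, 10.72 and 8.72, and TAP1 read 7.97, 8.97, 9.64 and 8.24 in the same arrays. At day 28 the interferon list read 8.27, 10.56, 10.74 and 8.32 and TAP1 read 8.22, 9.51, 9.78 and 8.22. The arrays with the high interferon list were thus also those with the high TAP1 signal at both ages. CIITA was high in them too, at 7.82, 9.06, 8.76 and 7.78 on day 7 and 8.02, 9.10, 8.92 and 7.90 on day 28. The high arrays were numbers 2 and 3 at both ages. Same-numbered lung arrays of these ages deviated together (correlations of 0.433 to 0.706), so day 28 may not be an independent repeat of day 7. CD74 at day 7 was also highest in these arrays, within a narrow range of 13.75 to 14.10. Not every member followed the list at every age. BLB1 read 13.72, 13.28, 14.14 and 13.80 at day 7, and BF2 read 11.66, 10.93, 11.29 and 10.27 at day 28. At day 1 the list read 8.24, 7.87, 10.30 and 10.11, and CIITA 7.10, 7.39, 7.12 and 7.23.

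Liver and intestine had the same 5 genes called higher. In liver, against 10.1% of all genes tested, BF2 differed by 3.42 ± 0.30 (SE, adjusted p = 2.02e-15, limma), BLB1 by 2.32, CD74 by 1.92, TAP2 by 1.82 and B2M by 1.73. TAP1 (0.74) and CIITA (0.51, adjusted p = 0.143) were under the fold. In intestine, against 6.47% of all genes tested, the differences were 3.24 for BF2, 2.53 for BLB1, 1.93 for B2M, 1.87 for CD74 and 1.68 for TAP2, with TAP1 (0.39) and CIITA (0.36) not called. TAP2 averaged 8.12 in duodenum, 9.64 in whole intestine and 10.76 in jejunum. With the first run only, which leaves out jejunum and takes some organs at other ages, TAP2 in intestine was not called (1.00, just under the fold). In both organs the other antigen presentation genes included TAPBP, or tapasin, which tethers class I molecules to the pump, at 1.74 in liver and 2.32 in intestine. Pan-leukocyte markers differed more widely between the organs, with 9 of 12 higher in liver and 1 of 12 in intestine, and their part was not tested.

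**Figure D3:**
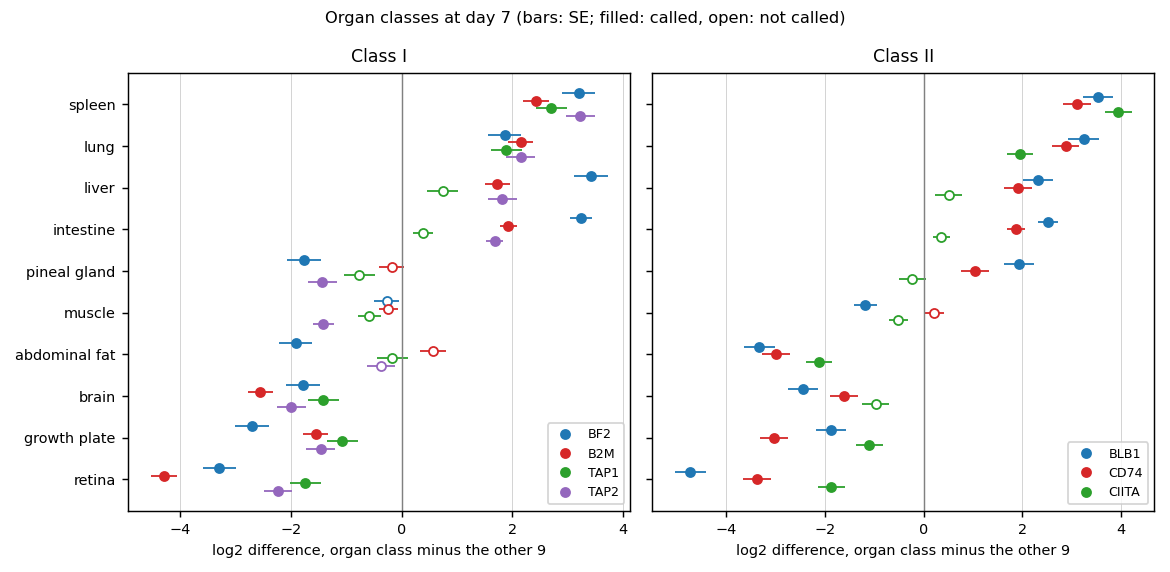
Log2 difference of each organ class from the mean of the other 9 at day 7, class I genes and class II genes in separate panels; bars are standard errors, filled points passed both thresholds and open points did not. Spleen and lung lie on the high side for all 7 genes, retina and growth plate on the low side for all 7, and pineal gland has BLB1 and CD74 high and BF2 and TAP2 low, with its other 3 points open.

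Retina and growth plate, the cartilage that lengthens bone, had all 7 genes called lower, against 15.2% and 16.7% of all genes tested. In retina BLB1 was lower by a log2 of -4.73, or 26.46-fold, B2M by -4.29, or 19.53-fold, CD74 by -3.38 and BF2 by -3.29. The others were TAP2 at -2.23, CIITA at -1.87 and TAP1 at -1.74. The retina means of BF2 (5.51), TAP1 (5.44) and CIITA (4.91) lay at the dim end, with the 25th percentile of the arrays' values at 5.53, where signal was not shown to stand above background. In growth plate CD74 (-3.03) and BF2 (-2.70) had the largest differences, and the other 5 lay between -1.88 and -1.07, of which TAP1 was not called without array 4 of every class (-0.77) and CIITA not without array 3 (-0.92). The interferon list was lower there too, in 23 of 26 genes for retina and 18 of 26 for growth plate, as were 9 of 12 pan-leukocyte markers in each, and their part was not tested. Brain had 6 genes called lower, against 8.23% of all genes tested, among them B2M (-2.55), BLB1 (-2.45) and TAP2 (-1.99), and CIITA at -0.97 was just under the fold. Cerebral cortex of the same age, which is not in the brain class, averaged higher than brain. Its means were 11.52 against 9.69 for B2M, 10.76 against 8.61 for BLB1 and 6.71 against 6.21 for TAP2.

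In pineal gland members were called in both directions. Pineal gland, the light-sensing endocrine organ of the brain's roof, had BLB1 (1.94) and CD74 (1.04, adjusted p = 0.00196) called higher, against 10% of all genes tested. In the same organ BF2 (-1.76) and TAP2 (-1.43) were called lower, against 7.16%, and TAP1 (-0.76), B2M (-0.18) and CIITA (-0.23) were not called. Without the fat arrays, which lack adipocyte markers at day 7, the CD74 difference in pineal gland was 0.72 and no longer called, nor was it without array 1 (0.96) or 4 (0.98) of every class. With a gene's probe sets averaged, BLB1 in pineal gland differed by 0.33 (adjusted p = 0.136) and BF2 by -0.84, and neither was called. Of the interferon list 14 of 26 genes were lower in pineal gland, and of the pan-leukocyte markers 2 of 12 were lower and none higher.

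In fat, within that limit on its identity, all 3 class II genes were called lower, against 9.76% of all genes tested, at -3.33 for BLB1, -3.0 for CD74 and -2.12 for CIITA. Of class I only BF2 was called lower (-1.91), while B2M differed by 0.57, TAP1 by -0.17 and TAP2 by -0.37. T cell markers were lower in 8 of 15 cases, and their part was not tested. In muscle TAP2 (-1.41) and BLB1 (-1.18) were called lower, against 6.17% of all genes tested, and CD74 differed by 0.21. The BLB1 difference was -0.99 and not called without array 4 of every class. The class is the mean of 2 muscles that did not overlap for these class II genes. BLB1 averaged 11.36 in gastrocnemius and 8.14 in pectoralis, and CD74 averaged 12.84 and 10.21. The class differences of BLB1 and CD74 therefore describe neither muscle alone.

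These calls depended in part on the probe set. With a gene's probe sets averaged, which brings in dim ones, BF2 was no longer called in lung, fat, pineal gland, growth plate and brain, CIITA in lung, fat, retina and growth plate, BLB1 in pineal gland and muscle, and B2M in growth plate. Every direction was kept. TAP1 and TAP2 have only 1 probe set each.

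Beyond day 7, all arrays together gave an order of the 20 tissues for each gene. Tissue medians of BF2 were highest in jejunum (12.20), ileum (12.16), whole intestine (11.28) and duodenum (11.24), ahead of spleen (10.82) and lung (10.73), with array ranges that overlapped throughout. The shared BF1 and BF2 probe set gave ileum 13.77, jejunum 13.74 and spleen 13.0 at the top and retina 6.86 at the bottom. For TAP2 spleen led at 11.04, ahead of ileum (10.63) and jejunum (10.56). Class II medians were highest in spleen for BLB1 (14.42), CD74 (14.34) and CIITA (10.56). Liver, among the high tissues at day 7, lay lower here, with medians of 9.04 for BF2, 10.87 for BLB1 and 10.91 for CD74. Gastrocnemius (9.7) lay above it for BF2, and pineal gland for BLB1 (12.33) and CD74 (12.24). Without the low-marker liver group of day 56 the liver medians were 9.13, 11.36 and 11.22.

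Cecal epithelia, sampled only at day 14, came next to spleen for CIITA, with a median of 9.51, and were uneven. The CIITA arrays read 9.62, 9.47, 9.55 and 6.52, and the probe set shared by BLB2 and BLB1 read 10.29, 9.79, 9.90 and 7.34 in the same arrays. The lowest array was thus the same one for both. The highest array of that shared probe set in any other tissue read 8.01, and in spleen, where BLB1 was at its highest, its median was 6.74.

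Reproductive tissues differed from gene to gene, and their labels conflict in part, since 2 of the 4 oocyte arrays and all 3 ovary arrays of week 17 are labelled male. The TAP1 median of oocytes was 6.11 and the TAP2 median of testes 6.14, both near the low end of the 20 tissues. Oocytes at week 21 had B2M at 10.51, 11.85, 12.11 and 12.22. Their B2M median of 11.98 lay between the tissue medians of retina (8.00) and jejunum (14.20). In oocytes BLB1 read 7.16 to 7.59 and CD74 read 8.90 to 9.76. The BLB1 medians of oocytes (7.19) and retina (7.42) were the lowest of the 20 tissues, and single retina arrays at day 7 lay under every oocyte array. CIITA had a tissue median of 7.51 in ovarian cortex and 7.40 in testes, next to lung at 7.44. The testes arrays read 7.17, 7.40 and 8.02.

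In the first week of age the liver had the most members called. All 7 genes were called higher at day 7 than at day 0, against 6.31% of all genes tested (limma on the 8 arrays, here and in each comparison of ages). BF2 read 11.14, 11.42, 11.55 and 12.10 at day 7, against 7.91, 8.12, 9.07 and 9.52 at day 0. B2M read 13.38, 13.54, 13.62 and 13.64 at day 7, against 9.77, 10.33, 10.58 and 10.68 at day 0. TAP2 read 9.25 to 10.01 at day 7, against 5.79 to 7.16 at day 0. No array of the earlier age reached the later one for these genes. The share of all genes without such overlap was not counted, here and in the other comparisons of ages. The log2 differences were 2.90 ± 0.35 for BF2 (SE, adjusted p = 9.68e-05), 3.21 ± 0.23 for B2M (1.83e-06), 3.04 ± 0.31 for TAP2 (2.8e-05) and 1.73 ± 0.31 for TAP1 (0.00169).

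All 3 class II genes rose in liver, CIITA least. BLB1 read 12.57, 12.80, 13.02 and 13.19 at day 7, against 8.61, 9.60, 9.86 and 10.01 at day 0. CD74 read 12.96, 13.07, 13.11 and 13.13 at day 7, against 9.75, 9.95, 10.66 and 10.90 at day 0. Both genes were free of overlap, with differences of 3.38 ± 0.29 (adjusted p = 8.23e-06) and 2.75 ± 0.26 (1.53e-05). CIITA differed by 1.06 ± 0.27 (adjusted p = 0.0157), with overlapping arrays at 6.46 to 7.47 on day 7 and 5.59 to 6.53 on day 0. That call was lost without array 3 or 4 of either age, at 0.92 to 1.00, with array weights (adjusted p = 0.062) and with averaged probe sets (0.23).

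Immune cell and interferon genes moved with the liver change. The mean of the pan-leukocyte list lay at 8.72 to 9.17 per array at day 7, against 7.00 to 7.39 at day 0, and 9 of its 12 genes rose, PTPRC (CD45) by 3.18. Of 14 T cell and cytotoxic markers 7 rose, led by the granule genes GZMA (4.60) and GNLY (4.44). Of the interferon list 18 of 26 rose, and of 24 other antigen presentation genes 6 rose, led by IFI30 (3.81) and CTSS (2.82). The part of these lists in the result was not tested.

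The liver course was not a steady climb. Over days 0, 1, 3, 7, 9 and 49 BF2 averaged 8.65, 7.95, 7.84, 11.55, 9.20 and 10.76, and CD74 averaged 10.32, 9.55, 10.75, 13.07, 11.59 and 13.65. All 4 CD74 arrays of day 9 (11.45 to 11.73) lay under those of day 7. Between day 49 and day 7 no member was called in limma, against 3.95% of all genes called higher and 6.26% lower. At an unadjusted p under 0.05 there were 2 members and 4328 genes. The largest member differences were -0.79 for BF2 (adjusted p = 0.0381, under the fold) and 0.58 for CD74 (0.095).

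Whole intestine had 5 genes called higher at day 7 than at day 0, against 1.69% of all genes tested. BLB1 read 13.55, 13.58, 13.65 and 13.80 at day 7, against 10.38, 10.53, 10.63 and 10.66 at day 0. CD74 read 12.89, 12.93, 13.04 and 13.09 at day 7, against 9.80, 9.96, 10.15 and 10.18 at day 0. The arrays of each age lay close together and far from the other age, with differences of 3.09 ± 0.08 for BLB1 (SE, adjusted p = 1.63e-08) and 2.97 ± 0.09 for CD74 (3.53e-08). BF2 differed by 3.32 ± 0.32, B2M by 2.18 ± 0.11 and TAP2 by 1.31 ± 0.11. TAP1 (0.36) and CIITA (0.93, adjusted p = 0.000155) were under the fold, although the CIITA arrays at 6.77 to 7.19 on day 7 and 5.92 to 6.26 on day 0 did not overlap. Of 14 T cell and cytotoxic markers 5 rose, GZMA by 5.87, and 5 of 12 pan-leukocyte markers, and their part was not tested.

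Duodenum had 4 genes called higher at day 7 than at day 0, against 0.822% of all genes tested. They were B2M (3.22 ± 0.33, adjusted p = 3.05e-05), BF2 (2.53 ± 0.39), CD74 (2.29 ± 0.39) and BLB1 (2.14 ± 0.33). B2M read 12.98 to 13.43 at day 7, against 9.67 to 10.28 at day 0. TAP2 differed by 0.71, TAP1 by 0.05 and CIITA by 1.13 (adjusted p = 0.126). Without array number 1 of both ages the same 4 genes were called, at 2.18 to 3.15. The granule genes GZMA (3.98) and GNLY (3.43), named by size from the T cell and cytotoxic list, rose with them. The rest of that list is not described for duodenum. Of the pan-leukocyte markers 1 of 12 rose, and the part of these genes was not tested.

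In pectoralis muscle 1 gene of each class was called, in opposite directions. B2M was called higher at day 7, against 2.77% of all genes, with 10.79 to 11.79 at day 7 and 9.10 to 9.63 at day 0 (1.75 ± 0.31, adjusted p = 0.0015). BLB1 was called lower, against 4.27%, with 7.14, 8.10, 8.63 and 8.69 at day 7 and 9.18, 9.51, 9.58 and 9.83 at day 0 (-1.39 ± 0.35, adjusted p = 0.0202). Neither gene's arrays overlapped between the ages. The BLB1 call was lost without array 4 of day 7 or without array 2 or 3 of day 0. No pan-leukocyte marker was called, and the list's mean lay at 6.25 to 6.73 at day 7, against 6.27 to 6.61 at day 0.

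In brain no member and no gene at all was called between day 7 and day 0 (limma, 0% of genes), while 3 members and 697 genes had an unadjusted p under 0.05. The B2M arrays still did not overlap, at 9.53, 9.59, 9.79 and 9.85 on day 7 and 8.02 to 8.67 on day 0 (1.38, adjusted p = 0.324). CD74 did not overlap either, at 9.24 to 10.38 on day 7 and 8.06 to 8.79 on day 0 (1.37, adjusted p = 0.422). With the spread estimated from all first-run brain ages, both passed the thresholds (adjusted p = 0.000419 and 0.000523), and in the fit of both ages without array number 1 neither did (adjusted p = 0.435 and 0.42). The later ages in that pooled spread were more even, with a median SD over probe sets of 0.10 at day 42, against 0.41 at day 7.

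No member was called between day 7 and day 1 in spleen, fat, jejunum or retina (limma). The share of all genes called in these was 0%, 0%, 0.177% and 0% higher, and 0.0415%, 0%, 0.411% and 0.00824% lower. At an unadjusted p under 0.05 there was 1 member in spleen, BF2 with a difference of 1.09 (adjusted p = 0.58), and 773 genes, with no member in the other 3 tissues and 875, 1341 and 681 genes. Jejunum was already high at day 1, with CD74 at 14.14, 14.48, 14.58 and 14.77. The duodenum arrays of day 1, of the same run, read 9.67, 10.32, 10.33 and 11.43. B2M at day 1 read 14.07 to 14.51 in jejunum and 9.93 to 10.53 in duodenum, also without overlap. Both groups are of the second run, where free descriptions and titles conflict over tissue or age, so this contrast rests on the titles.

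The first-week changes were compared between organs by testing each organ's change minus that of brain in 1 limma fit. In liver all 7 genes changed more than in brain, against 7.82% of all genes tested, with TAP2 at 3.37 (adjusted p = 5.5e-08), BF2 at 2.44 and BLB1 at 2.30 the largest. In whole intestine BF2 (2.87), BLB1 (2.02), TAP2 (1.64) and CD74 (1.59) were called, against 0.623%, and in duodenum BF2 (2.08), B2M (1.84) and CIITA (1.43), against 5.06%. In pectoralis only BLB1 was called (-2.46, adjusted p = 0.000426), against 5.72%. Without array number 1 in brain, duodenum and pectoralis, whole intestine kept only BF2 (2.82), and the calls in the other 3 organs were made again.

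**Figure D4:**
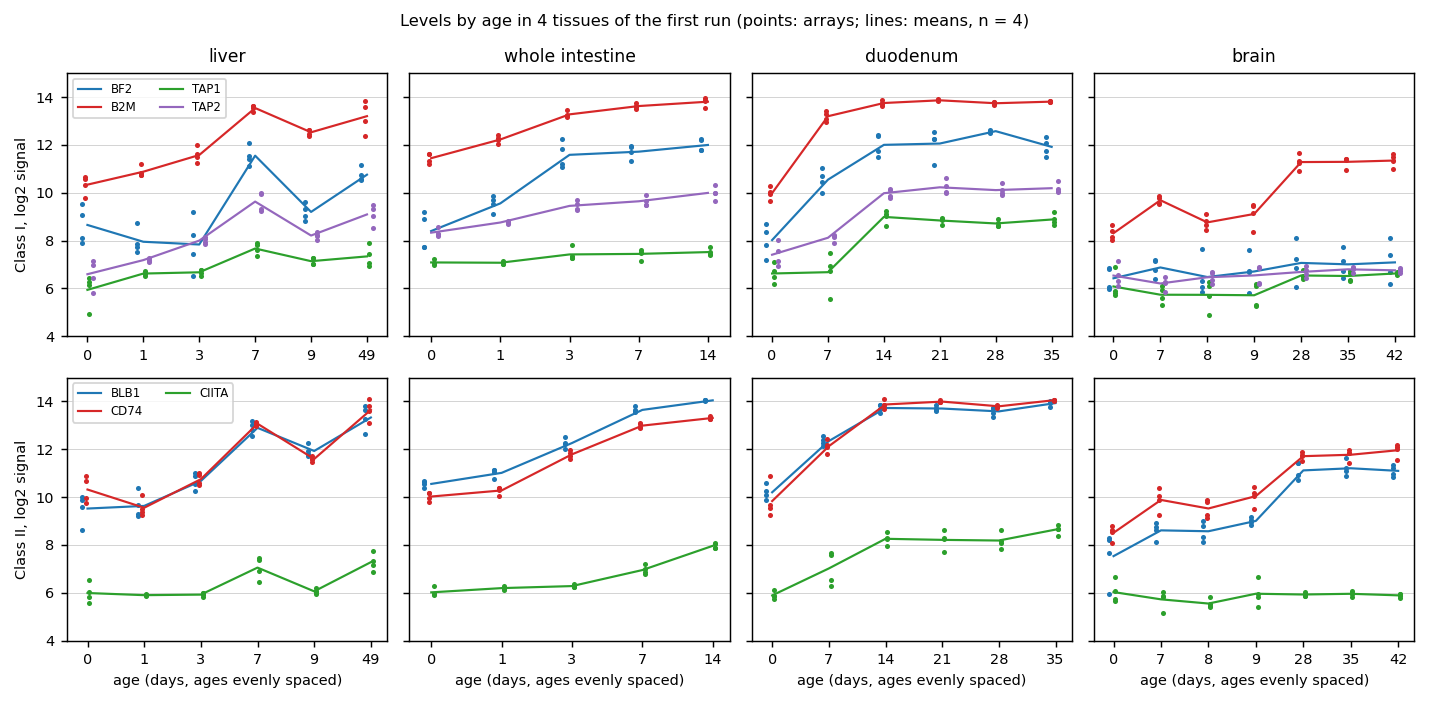
Log2 signal by age in liver, whole intestine, duodenum and brain, first run of sample numbers only, without the low-marker groups of liver at day 56 and brain at day 21; points are arrays, lines join group means, and ages are evenly spaced, not to scale. Liver peaks at day 7 for BF2. In whole intestine most genes climb over the first week and stay high. In duodenum most genes go on climbing after day 7, and TAP1 climbs only then. In brain CD74 and B2M are higher from day 28 while BF2 stays between 6.42 and 7.09.

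After the first week the duodenum went on changing. At day 35 against day 7, 6 genes were called higher, against 11.8% of all genes tested. CD74 read 14.03 to 14.08 at day 35, against 11.80, 12.09, 12.18 and 12.44 at day 7. TAP2 read 10.03 to 10.48 at day 35, against 7.91 to 8.22 at day 7. The 6 genes had no overlapping arrays, in a comparison where 4795 of 12397 genes had an unadjusted p under 0.05 (limma). How many of all genes were free of overlap was not counted. The differences were 2.20 ± 0.35 for TAP1, 2.07 ± 0.21 for TAP2, 1.93 ± 0.22 for CD74, 1.63 ± 0.32 for CIITA, 1.59 ± 0.21 for BLB1 and 1.37 ± 0.28 for BF2, with adjusted p-values of 0.000118 to 0.00532. B2M, which had changed most in the first week, differed by 0.61 (adjusted p = 0.0494). With averaged probe sets BF2 (0.76) and CIITA (0.60) were not called, and with quantile normalization BF2 (0.74) was not.

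Over days 0, 7, 14, 21, 28 and 35 TAP1 averaged 6.62, 6.68, 8.99, 8.84, 8.72 and 8.88, and CIITA averaged 5.89, 7.02, 8.25, 8.21, 8.18 and 8.64. Of 12 pan-leukocyte markers 6 rose between day 7 and day 35, with list means of 8.18 to 8.38 at day 35, against 7.20 to 7.64 at day 7, and their part was not tested. The interferon list did not move one way, with 2 of 26 higher, 3 lower and list means of 7.58 to 8.30 at day 35, against 8.00 to 8.39 at day 7. Among other antigen presentation genes DMA (3.64) and PDIA3 (3.35), a chaperone of class I loading, rose most.

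Abdominal fat had the largest late differences of any member, between day 42 and a day 7 group that lacked adipocyte markers. BLB1 read 11.89 to 13.26 at day 42, against 6.65, 7.88, 8.00 and 8.71 at day 7, a difference of 4.78 ± 0.43 or 27.47-fold (adjusted p = 4.07e-08). CD74 read 12.42 to 13.07 at day 42, against 7.95, 8.64, 8.93 and 9.03 at day 7, a difference of 4.09 ± 0.36 or 17.03-fold. BF2 was also called (2.05 ± 0.43, adjusted p = 0.000727), against 6.97% of all genes called higher and a median over all genes of -0.28. The pan-leukocyte means overlapped, at 7.03 to 7.75 on day 42 and 7.35 to 7.68 on day 7, and T cell means did not, at 6.24 to 6.77 on day 42 and 5.47 to 5.95 on day 7. The part of these markers, and that of the adipocyte markers, was not tested.

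The step in fat lay between neighbouring ages of the first run, where organ markers also changed. CD74 read 13.56, 13.63, 13.66 and 13.67 at day 14, against 7.59, 7.75, 8.36 and 8.48 at day 10, and BLB1 read 12.30 to 13.71 at day 14, against 8.29 to 9.11 at day 10. Of class I only TAP1 is given at this step, and it overlapped, at 6.84 to 8.44 on day 14 and 6.51 to 6.89 on day 10. BF2, B2M and TAP2 are not given, so class I as a whole is not compared with class II here. These are descriptions, since day 10 was another group with a low adipocyte marker, ADIPOQ.

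In whole intestine only CIITA was called between day 14 and day 7, against 0.0256% of all genes tested. It read 7.85 to 8.07 at day 14, against 6.77, 6.85, 6.98 and 7.19 at day 7 (1.01 ± 0.10, adjusted p = 0.0115), barely past the fold, and the call was lost without array 3 or 4 of either age. BLB1 (0.40) and CD74 (0.32) did not overlap between these ages and were not called (adjusted p = 0.133 and 0.217). No member was called in lung between days 28 and 7, in spleen between days 14 and 7, in jejunum between days 42 and 7, or in growth plate between days 28 and 7 (limma). The shares of genes called higher were 0%, 0.461%, 3.94% and 0%, and lower 0%, 0.313%, 0.675% and 0%, and at an unadjusted p under 0.05 there were 0, 0, 1 and 2 members and 270, 1364, 2372 and 1119 genes. The jejunum member was BLB1, at 11.97 to 12.45 on day 42 and 12.81 to 13.58 on day 7 (-1.04, adjusted p = 0.103), and the growth plate members were BLB1 (-1.82) and CD74 (-1.42).

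In brain and retina the later ages had more CD74 than the early ones, described here without a test. Brain CD74 read 11.52, 11.70, 11.75 and 11.87 at day 28, against 9.49, 10.04, 10.19 and 10.44 at day 9, and B2M read 10.90 to 11.66 at day 28, against 8.34 to 9.49 at day 9. Brain BF2 means stayed within 6.42 to 7.09 over the first-run ages in the plot, which leaves out the low-marker group of day 21, with a mean of 6.36. Cerebral cortex at day 7 had CD74 at 11.66, 11.74, 11.85 and 12.05, wholly above whole brain of that age. Retina CD74 read 9.98, 10.21, 10.57 and 10.75 at day 14, against 7.24, 7.65, 7.79 and 8.13 at day 9, while BLB1 overlapped at 7.26 to 7.87 on day 14 and 7.10 to 7.60 on day 9. Photoreceptor genes moved at the same step, with the red opsin gene OPN1LW averaging 10.76 at day 14 and 13.35 at day 9, and PDE6H averaging 9.79 at day 14 and 11.91 at day 9, and their part in the result was not tested.

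The difference CD74 minus BLB1 within an array was used to see where the class II pair changed unequally. It shows unequal change between tissues and not which gene is more abundant. Over the groups it was largest in the second pectoralis set of day 21 (4.31 ± 1.14, SD, n = 4) and in gastrocnemius at day 21 (4.26 ± 0.95), which hold matching arrays. The day 28 groups that match them read 3.68 in gastrocnemius and 3.56 in pectoralis. Retina at days 14 to 35 (2.64 to 2.94) and gastrocnemius at day 1 (2.79) followed. The difference was lowest in liver at day 56 (-2.03), whose liver markers are low, and in growth plate at days 1 and 21 (-1.20 and -1.01). Growth plate at its other ages read -0.51 at day 7, -0.10 at day 28 and 0.47 at day 14.

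**Figure D5:**
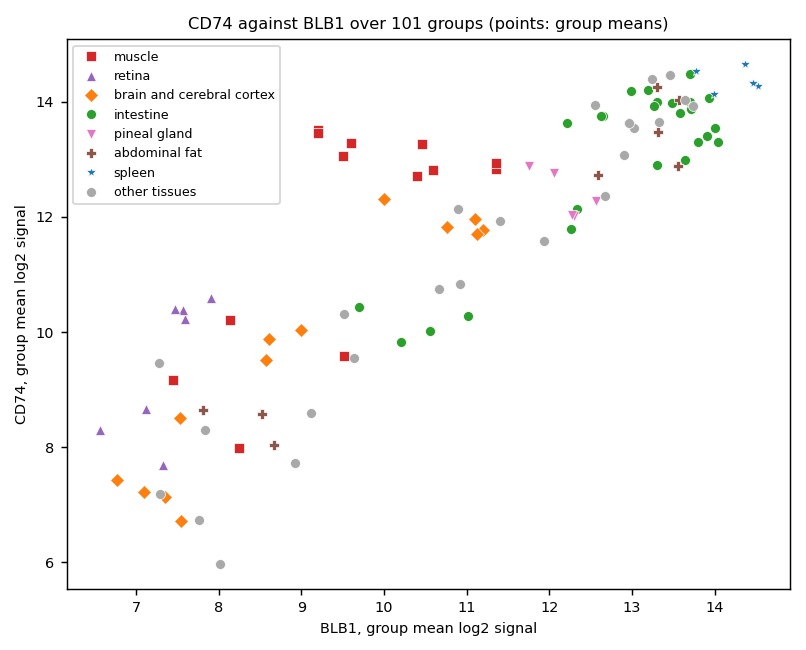
Mean log2 signal of CD74 (y axis) against BLB1 (x axis), 1 point for each of the 101 groups, marked by tissue class. Most groups lie along 1 band, and several groups of muscle, retina and brain lie above it, with CD74 high for their BLB1.

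Over 98 groups, with the matching muscle groups counted once, the members' group means went together. BLB1 and CD74 had a Pearson r of 0.906, TAP1 and TAP2 0.894, and BF2 and TAP2 0.889, and the lowest was 0.561 for B2M and CIITA. B2M went more closely with the class II genes BLB1 (0.876) and CD74 (0.853) than with BF2 (0.805), and CIITA went most closely with TAP1 (0.822). The genes most like the class I mean were IFI6 (0.940), IFI27L2 (0.934), CTSS (0.932), IRF1 (0.929), LYN (0.927) and IFI35 (0.925). Those most like the class II mean were CTSS (0.897), the integrin chain gene ITGB2 (0.892), LOC769232 (0.891), TARP (0.890), and the T cell receptor complex genes CD3D (0.883) and CD3E (0.879). These correlations are descriptions over tissues and ages that share arrays, runs and tissue of origin.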

How the data were processed

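Values were deposited as log2 signal, 1 per probe set and array, made by the authors in Affymetrix Expression Console 1.1 per the submitters' processing notes; how they were normalized was not given in the sources used here. Trizol total RNA and biotin-labelled cRNA were used, per the labels' protocols. There were 38535 probe sets, 96 of them controls. Of the others 27168 carried 1 gene symbol, 177 several and 11094 none, and only the first kind was tested. Array medians lay between 5.99 and 6.47 and values between 3.01 and 15.79; the number of arrays limits the precision.

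Groups and replicate numbers came from the sample titles and source names. Free descriptions in the second run conflicted with the titles over tissue or age. Groups of that run were formed by title. A group of 6 pectoralis arrays with conflicting ages entered no test.

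The members and gene lists were chosen with earlier results of these data known. Each gene had its brightest probe set. Genes dimmer than the 25th percentile of a fit's values in every group were left out, which removed CIITA from day 7 against day 1 in fat and retina and from day 42 against day 7 in fat. limma 3.58.1 (R 4.3.3, version 1.17.8 of data.table) fitted 1 mean per group. The organ fit used 10 classes and 52 arrays, with equal weight for the tissues of a class. Each of 17 age comparisons used only the arrays of its 2 groups. The p-values of the moderated tests were adjusted by Benjamini and Hochberg over all genes of a contrast. All 7 measured members are named. Of other lists, up to 4 genes per comparison that passed are named, by size, with counts for the whole list in some comparisons only. The 6 most similar genes were ranked by Pearson r over group means. The procedure was tested on simulated data.

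The planned tests of BLB1 minus BLB2 and of BF2 minus BF1 were not run, since BLB2 and BF1 had no probe set of their own. In the 17 age comparisons, same-numbered arrays deviated together throughout only in lung (correlations of 0.433 to 0.706), where 2 of 4 arrays correlated best with their own number; no label gives pairs. Alternatives were quantile normalization, no filter or a 50th percentile filter, median centring, averaging a gene's probe sets, array weights, replicate block, all ages of a tissue and run in 1 fit, the first run only, and arrays left out. Leaving out fat, leaving out array number 1 and the comparison with brain were chosen after seeing the data. Figures used matplotlib 3.10.9 in Python 3.11.15, with pandas 2.3.3, numpy 2.4.6 and scipy 1.17.1.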

Additional observations from a re-analysis of the deposited data

Results flagged for a closer look

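In 9 of 210 tests of 1 member in 1 group of 4 to 10 arrays, or 4.29%, 1 array lay far from the rest, and chance flags about 1 in 20 such tests. The arrays far below their group were BF2 in jejunum at day 7, replicate 4 (10.26, the others at 12.28 to 12.56), B2M in gastrocnemius at day 7, replicate 3 (11.50, the others at 12.52 to 12.72), B2M in jejunum at day 42, replicate 4 (14.07, the others at 14.53 to 14.62), TAP2 in abdominal fat at day 7, replicate 1 (6.75, the others at 7.89 to 8.03), TAP2 in spleen at day 1, replicate 4 (10.03, the others at 11.03 to 11.11), and BLB1 in jejunum at day 1, replicate 3 (13.51, the others at 13.75 to 13.79). The arrays far above their group were TAP1 in brain at day 0, replicate 4 (6.89, the others at 5.71 to 5.90), BF2 in pineal gland at day 7, replicate 3 (6.97, the others at 6.85 to 6.87), and CIITA in whole intestine at day 0, replicate 2 (6.26, the others at 5.92 to 5.95).

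In 15 of 28 tests the first-week change of a member differed between an organ and brain, by the interaction term in limma. Of all genes tested, 7.82% were called for liver, 0.623% for whole intestine, 5.06% for duodenum and 5.72% for pectoralis. The comparison with brain was chosen after seeing the data. For liver minus brain the differences were 2.44 for BF2, 1.83 for B2M, 2.08 for TAP1, 3.37 for TAP2, 2.30 for BLB1, 1.38 for CD74 and 1.37 for CIITA. For whole intestine minus brain they were 2.87 for BF2, 1.64 for TAP2, 2.02 for BLB1 and 1.59 for CD74, and for duodenum minus brain 2.08 for BF2, 1.84 for B2M and 1.43 for CIITA. For pectoralis minus brain BLB1 differed by -2.46. Without array number 1 in brain, duodenum and pectoralis, the whole intestine differences of TAP2, BLB1 and CD74 were no longer called (adjusted p = 0.0515, 0.0633 and 0.064).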

How the results depend on the processing

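Of 186 member differences 82 were called; each kept its direction in every alternative run, 62 stayed called in all of them, 20 were lost in at least 1, and 6 others were called in at least 1. With averaged probe sets, fat had 2 members called in place of 4, pineal gland 2 of 4, growth plate 4 of 7, muscle 1 of 2, pectoralis at day 7 against day 0 1 of 2, and whole intestine at day 14 against day 7 0 of 1. The last was also 0 with quantile normalization and with the replicate block (adjusted p = 0.148 for CIITA), and the block changed no other member's call. With all ages of the tissue in 1 fit, brain at day 7 against day 0 had 2 members called in place of 0. Leaving out arrays gave 1 to 2 members in muscle and in pectoralis, 0 to 1 in whole intestine at day 14, 6 to 7 in liver at day 7 against day 0, in growth plate and in brain, 3 to 4 in pineal gland and 5 to 6 in whole intestine at day 7 against day 0, with no change in the other comparisons. The causes were not tested.

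Gene counts moved more than member counts. Between day 42 and day 7 in fat 4376 genes were called, 2624 with quantile normalization and 2863 with averaged probe sets. In duodenum at day 7 against day 0 there were 312, against 870 with the replicate block, 1339 with all ages and 132 without array number 1, and in brain 0, against 111 with all ages. With averaged probe sets duodenum at day 35 went to 1310 of 2092, liver at day 49 to 722 of 1255, growth plate to 2045 of 3163, intestine to 1473 of 2285, lung to 1507 of 2408, pineal gland to 1456 of 2228, jejunum at day 7 to 28 of 73, spleen at day 14 to 60 of 94, spleen at day 7 to 0 of 5, whole intestine at day 14 to 2 of 5 and retina to 0 of 1. Jejunum at day 42 had 188 of 568 with quantile normalization, jejunum at day 7 had 123 with all ages, and spleen at day 7 had 8 with no filter, quantile normalization or median centring and 9 with all ages. Whole intestine at day 14 had 0 with the block.

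Scaling also moved the split of higher to lower genes. Quantile normalization gave 1322 to 1327 in place of 1643 to 1069 for brain, 1052 to 1134 in place of 840 to 1445 for intestine, 907 to 605 in place of 770 to 800 for liver at day 7 against day 0, 189 to 214 in place of 101 to 211 for duodenum, 23 to 33 in place of 22 to 51 for jejunum at day 7, 984 to 1640 in place of 869 to 3507 for fat at day 42 and 125 to 63 in place of 485 to 83 for jejunum at day 42. Median centring gave 1750 to 933 in place of 1424 to 1230 for spleen, 1792 to 968 in place of 1496 to 1267 for fat, 868 to 1042 in place of 1003 to 801 for muscle, 901 to 615 for liver at day 7 and 314 to 1076 in place of 485 to 770 for liver at day 49. The tests of BLB1 minus BLB2 and BF2 minus BF1, with their alternatives, were not run.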
